A study of Mus musculus with 6 samples.

Results

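The YAP-TEAD genes described here were the co-activators *Yap1* and *Wwtr1*, the transcription factors *Tead1*, *Tead2*, *Tead3* and *Tead4*, the kinase gene *Lats2*, the target genes *Ccn1* and *Ccn2*, and *Veph1*. They were taken from the table of gene values by name and made up 10 of its 20624 genes. Most were chosen by their place in the pathway, and *Veph1* was also selected on a measured difference between the genotypes in the authors' own comparison, whose values are not used here. The table listed 8 of the genes under these symbols, and *Ccn1* and *Ccn2* under the older names *Cyr61* and *Ctgf*, matched through their Ensembl identifiers.

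RNA was sequenced after ribosomal RNA depletion from mDCT15 cells, a mouse kidney line labelled as distal convoluted tubule, the nephron segment that fine-tunes salt reabsorption. There were 6 samples, 3 of wild type cells and 3 of *Pkd1*-/- cells made by CRISPR-Cas9 editing, and both genotypes were grown in the same medium with fetal bovine serum. The sample titles give the edited cells as Pkd1-/-, while their genotype field reads PKD1 knockdown. Whether the edited cells came from a single clone is not given in the sources used here.

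YAP, encoded by *Yap1*, and TAZ, encoded by *Wwtr1*, are co-activators without a DNA-binding domain of their own, and they act on genes by binding TEAD factors. The Hippo kinases restrain them: MST1 and MST2 (*Stk4* and *Stk3*) activate LATS1 and LATS2, which phosphorylate YAP and TAZ and keep them out of the nucleus. In kidney epithelia the pathway is known for its response to cell density and stretch, and *Pkd1* encodes polycystin-1, the membrane protein most often mutated in autosomal dominant polycystic kidney disease.

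The value analysed for each gene was the authors' mean normalized count, the average over all samples of the reads assigned to the gene after scaling each library to a common size. It pools both genotypes, so it carries no spread between replicates, and neither a difference between genotypes nor one between genes was tested. The sum of the means was 16746088 and their median 104.5, and the depth of single libraries was not analysed here. To compare genes, each mean was divided by the length in kilobases of the union of the gene's annotated exons, and levels below are on this linear scale per kilobase.

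All 10 YAP-TEAD genes had a mean of at least 10, a minimum that 66.5% of all genes reached, and all had a mean of at least 100, reached by 50.3% of all genes. Their median level was 316 per kilobase, beside 28.6 over all genes with a gene model. With the union of exons the order from high to low was *Ccn1*, *Ccn2*, *Tead2*, *Tead1*, *Wwtr1*, *Yap1*, *Veph1*, *Tead3*, *Tead4* and *Lats2*. The first 5 of these lay above the ninth decile of all genes, 311 per kilobase, and all 10 lay above the all-gene median. Against only the genes whose mean reached 10, *Lats2* lay above 47.3% and the other 9 above the median. With no spread between replicates, it cannot be said which neighbours in this order differ.

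**Figure D1:**
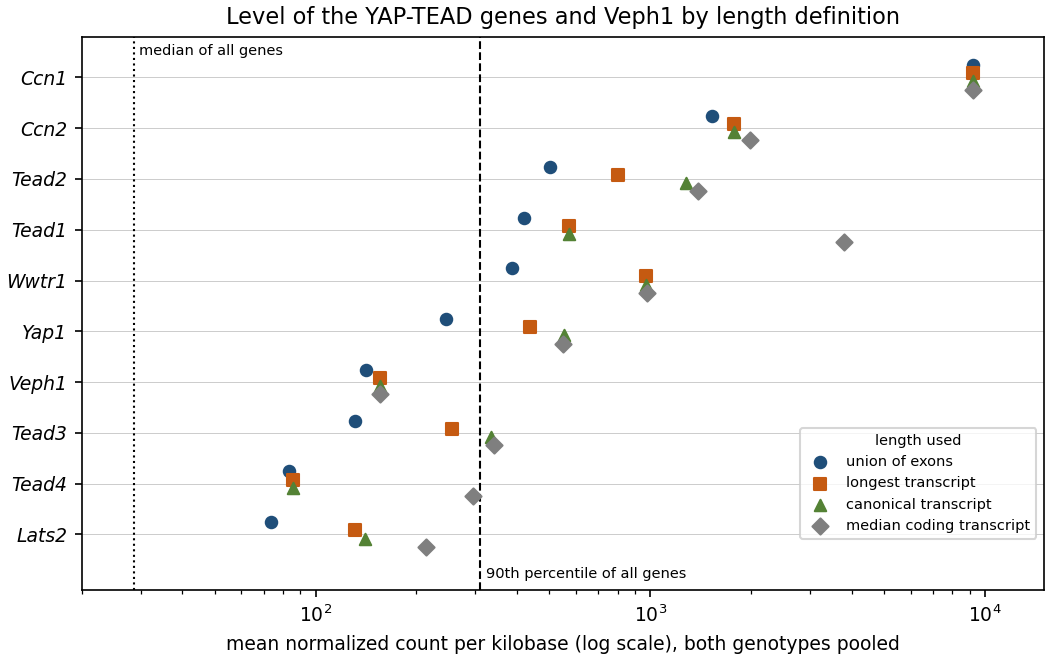
Level of each YAP-TEAD gene and *Veph1* as the authors' mean normalized count per kilobase, pooled over both genotypes, on a logarithmic axis. Each marker is 1 definition of gene length, the dotted line is the median of all genes and the dashed line the ninth decile, both for the union of exons. *Ccn1* sits near 9190 under every definition shown, while *Tead1* ranges from 419 to 3801.

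Promoter sequences are shown for 4 of the genes because they hold the letters GGAATG, the core that TEAD factors are known to bind, at different places and in very different base composition. The sequences came from RefSeq on GRCm38.p6, in windows from 250 bases before to 50 bases after an annotated start, in which 7 of the 10 genes were matched. Each line gives the 250 bases before the start on the gene's own strand, 5′ to 3′, with GGAATG or its reverse complement CATTCC in capitals. They lie at chr3:145649986-145650235 for *Ccn1*, chr9:8004597-8004846 for *Yap1*, chr3:57575911-57576160 for *Wwtr1* and chr3:66296838-66297087 for *Veph1*, all on the minus strand.
Ccn1: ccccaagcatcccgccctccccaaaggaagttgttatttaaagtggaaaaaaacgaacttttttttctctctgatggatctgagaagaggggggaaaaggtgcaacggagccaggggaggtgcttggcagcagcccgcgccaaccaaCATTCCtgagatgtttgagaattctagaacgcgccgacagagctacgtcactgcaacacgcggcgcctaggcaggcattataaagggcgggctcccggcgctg
Yap1: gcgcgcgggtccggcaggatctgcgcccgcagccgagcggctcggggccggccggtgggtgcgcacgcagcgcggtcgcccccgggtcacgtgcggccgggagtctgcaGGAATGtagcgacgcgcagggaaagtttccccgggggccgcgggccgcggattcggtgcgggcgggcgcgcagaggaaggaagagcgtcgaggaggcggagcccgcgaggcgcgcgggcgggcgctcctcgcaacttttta
Wwtr1: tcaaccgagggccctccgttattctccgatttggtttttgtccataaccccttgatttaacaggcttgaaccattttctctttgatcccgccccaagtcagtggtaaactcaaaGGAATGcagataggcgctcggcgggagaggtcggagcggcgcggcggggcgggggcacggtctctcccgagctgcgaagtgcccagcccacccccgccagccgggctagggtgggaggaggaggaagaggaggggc
Veph1: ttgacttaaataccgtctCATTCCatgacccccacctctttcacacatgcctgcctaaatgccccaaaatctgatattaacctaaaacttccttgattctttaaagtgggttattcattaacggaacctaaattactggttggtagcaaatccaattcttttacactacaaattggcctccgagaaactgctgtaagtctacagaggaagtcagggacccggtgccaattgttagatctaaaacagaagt

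GGAATG was searched on both strands. In *Yap1* it began 141 bases before the start, and in the first of the *Wwtr1* windows 136 bases before it, both on the strand of the gene. In *Ccn1* it lay on the opposite strand 103 bases before the start, and in *Veph1* also on the opposite strand, 232 bases before it. These windows ranged widely in base composition, from 40.4% G and C upstream of *Veph1* to 54.8% for *Ccn1*, 61.6% for *Wwtr1* and 76.4% for *Yap1*.

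Among the other matched genes, *Tead3* held GGAATG in more than 1 of its windows, the farthest 182 bases before a start, and *Lats2* held it 5 bases past its start. *Tead2* held none in its window, and *Ccn2*, *Tead1* and *Tead4* are named only. The letters were thus present for 6 of 7 genes (85.7%), or 8 of their 11 windows (72.7%), beside 14.7% of all 32851 windows and 16.6% of the 27025 genes with a window. Windows of the same gene can overlap and hold the same site, so the 11 windows are not independent. Among the listed YAP-TEAD target genes 8 of 16 had them, and among the Hippo kinases and scaffolds 8 of 20. The sets overlap, as *Lats2*, *Amotl2* and other genes are in both lists, and *Ccn1* is in the target list. These shares are a description of letters in a window, and binding was not measured.

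The TATA box letters TATAAA occurred for 1 of the 7 genes, *Ccn1*, 25 bases before its start, and for 15.7% of all genes with a window. TGANTCA, the letters bound by AP-1, a factor often found beside TEAD sites, occurred for 0 of the 7 genes and for 8.97% of all genes with a window. Both were searched on either strand, and the match of TATAAA in *Ccn1* did not overlap that of GGAATG.

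The kinase gene *Lats2* had the lowest level of the 10 genes, 73.4 per kilobase from a mean of 770, with the union of exons. With the longest or the canonical transcript the lowest was *Tead4* at 85.3, and with the median coding transcript *Veph1* at 156. *Lats2* lies on chromosome 14 from 57926960 to 57995845 on the minus strand of GRCm39 and encodes a kinase of 1042 residues. Its paralog *Lats1*, which phosphorylates the same co-activators, stood at 238 per kilobase, 3.24 times the level of *Lats2*, and the proteins were identical at 59.1% of aligned positions. In the annotation used here the protein-coding gene model *Gm49361* and the noncoding *Gm63517* overlap its locus on the same strand, both without a value in the table. Whether they shared reads with *Lats2* in the authors' counting was not tested.

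One step above them, *Stk4* stood at 237 per kilobase and *Stk3* at 67.5. That order depends on the length used, since the log2 ratio of *Stk4* over *Stk3* was 1.81 with the union of exons, 0.82 with the longest transcript, -0.09 with the median coding and -0.07 with the canonical transcript. The *Lats1* over *Lats2* ratio lay between 1.52 and 1.87 on the log2 scale under all 4 length definitions.

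For the co-activators, *Wwtr1* had a mean of 4561 and a level of 385 per kilobase, above 92.4% of all genes. *Yap1* had a mean of 2307 and a level of 246 per kilobase, above 86.7% of all genes. The pooled level of *Wwtr1* was 1.57 times that of *Yap1*, or 0.65 higher on the log2 scale, a difference that was not tested. The ratio was 1.76 to 2.22 times with the other 3 length definitions. With those lengths *Wwtr1* stood at 970 to 977 per kilobase and *Yap1* at 437 to 551. *Yap1* lies on chromosome 9 from 7932000 to 8004661 and *Wwtr1* on chromosome 3 from 57363067 to 57483331, both on the minus strand. The proteins, of 472 and 395 residues, were identical at 55.4% of aligned positions.

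All 4 TEAD genes, which encode the DNA-binding partners, were present. *Tead2* stood highest at 502 per kilobase from a mean of 2743, and *Tead1* followed at 419 per kilobase from a mean of 5683. *Tead1* had the larger mean but a longer exon union, 13573 bases against 5463. *Tead3* reached 131 per kilobase and *Tead4* 83.4, from means of 879 and 506. Of the summed TEAD level, *Tead2* made up 44.2%, *Tead1* 36.9%, *Tead3* 11.5% and *Tead4* 7.35%.

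The order of *Tead1* and *Tead2* turned with the length definition. The log2 ratio of *Tead1* over *Tead2* was -0.26 with the union of exons, -0.49 with the longest transcript and -1.16 with the canonical transcript, but 1.45 with the median coding transcript. In that last case *Tead1* made up 65.2% of the summed level and *Tead2* 23.9%. Over the 4 definitions the share of *Tead3* ranged from 5.86% to 14.9% and that of *Tead4* from 3.76% to 7.35%. Under all 4 definitions *Tead1* and *Tead2* together exceeded *Tead3* and *Tead4*.

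**Figure D2:**
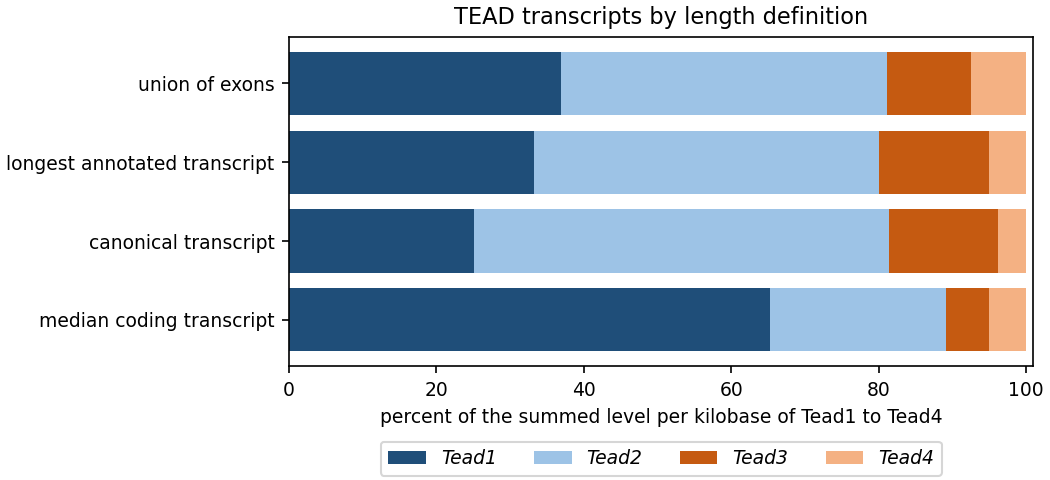
Share of the summed level per kilobase taken by each TEAD gene, in percent from 0 to 100, for 4 definitions of gene length, from the authors' mean over both genotypes. *Tead2* has the widest segment in 3 of the 4 bars, 44.2% with the union of exons, and *Tead1* in the bar for the median coding transcript, at 65.2%.

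The TEAD proteins are close relatives with similar lengths, from 427 residues for *Tead4* to 445 for *Tead2*. Identity over aligned positions was highest between *Tead1* and *Tead4*, 78.6%, and lowest between *Tead2* and *Tead4*, 65.2%. The pair with the highest transcript levels, *Tead1* and *Tead2*, was identical at 72.5%. The annotated coding sequences of *Tead3* and *Tead4* begin with ATA and ATT in place of ATG. *Tead1* from 112278522 to 112506014 and *Tead2* from 44865172 to 44883071 share chromosome 7 and the plus strand, while *Tead3* lies on chromosome 17 and *Tead4* on chromosome 6.

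*Ccn1* and *Ccn2* encode secreted matricellular proteins and are widely used as readouts of YAP and TAZ activity. *Ccn1* (ENSMUSG00000028195) had a mean of 18674 and a level of 9190 per kilobase, which ranked 14 among all genes with a model. *Ccn2* (ENSMUSG00000019997) had a mean of 4871 and a level of 1529 per kilobase, rank 213. The level of *Ccn1* was 6.01 times that of *Ccn2*, and between 4.63 and 5.15 times with the other lengths. For scale, the cytoskeletal gene *Actb* stood at 36707 per kilobase, *Gapdh* at 1052, *Hprt* at 128 and *Tbp* at 43.2 with the union of exons. *Gapdh* lay below *Ccn2* with that length alone, as it stood at 1879 to 5654 with the other 3, where *Ccn2* stood at 1785 to 1991.

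Both are compact genes with 5 exons in the canonical transcript. *Ccn1* lies on chromosome 3 from 145352720 to 145355738 on the minus strand, with an exon union of 2032 bases, and *Ccn2* on chromosome 10 from 24471333 to 24474900 on the plus strand, with 3187 bases. A noncoding gene on the opposite strand overlaps each: *Gm17501* at *Ccn1*, with a mean of 178, and *Gm15270* at *Ccn2*, with a mean of 14.5. Whether reads of such partners were exchanged in the counting was not tested.

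The other CCN genes with a value were lower. *Ccn4*, listed as *Wisp1*, reached 495 per kilobase, *Ccn5*, listed as *Wisp2*, 31.6, and *Ccn3* and *Ccn6* had no value. The proteins of *Ccn1* and *Ccn2* were identical at 51.5% of aligned positions, and the other pairs among these 4 between 40.2% and 45.6%.

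*Veph1* encodes a protein with a pleckstrin homology domain, the mammalian counterpart of *Drosophila* melted, which acts opposite the LATS homolog Warts in the choice of photoreceptor fate. *Veph1* (ENSMUSG00000027831) had a mean of 1003 and a level of 142 per kilobase, above 76.8% of all genes. It lies on chromosome 3 from 65960979 to 66204258 on the minus strand, has 14 exons in the canonical transcript and encodes 833 residues. *Ccn1* and *Wwtr1* lie on the same chromosome.

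The *Veph1* level was below that of *Yap1* by 0.80 on the log2 scale with the union of exons and by more with the other lengths. It was close to *Tead3*, with a log2 ratio of 0.11, which turned to -0.71, -1.13 and -1.1 with the longest, median coding and canonical transcripts. The *Veph1* locus contains the coding gene *Ptx3* on the opposite strand, with a mean of 0.642, and the processed pseudogenes *Tpi-rs2* and *Gm37330* on its own strand, with means of 1.82 and 1.24. As the pooled mean holds no value for either genotype, 142 per kilobase describes neither the wild type nor the *Pkd1*-/- cells by themselves.

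The genes around them in the pathway were broadly present. Of 24 Hippo kinases and scaffolds, 23 had a value and all 23 a mean of at least 10, with a median of 237 per kilobase. In this list 22 genes stood above the all-gene median, *Lats2* among them, and 8 in the top decile. The highest was *Amotl2* at 1058 per kilobase, an angiomotin that binds YAP at cell junctions and is itself a YAP target, and the lowest the atypical cadherin gene *Fat4* at 13.9. Its relatives *Amot* and *Amotl1* stood at 581 and 160 per kilobase, and the *Fat4* ligand gene *Dchs1* had no value.

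Of 10 co-activators and TEAD cofactors, 9 had a value and 8 a mean of at least 10, with a median of 196 per kilobase. This list includes *Yap1*, *Wwtr1* and all TEAD genes, so only its vestigial-like genes add to the 10 YAP-TEAD genes. The vestigial-like genes encode cofactors that compete with YAP and TAZ for TEAD. *Vgll4* stood at 196 per kilobase, above *Tead3* and *Tead4*, and *Vgll3* at 89.0. *Vgll2* stood at 2.55 from a mean of 9.16, under the minimum of 10, and *Vgll1* had no value.

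Of 23 commonly listed YAP-TEAD target genes, *Ccn1*, *Ccn2* and *Lats2* among them, 22 had a value and all 22 a mean of at least 10. Their median was 373 per kilobase, 19 stood above the all-gene median and 14 in the top decile. *Ccn1* was the highest, *Asap1* at 382 and *Arhgef17* at 365 were the middle genes, *Nt5e* at 11.6 was the lowest, and *Igfbp3* had no value. The target list therefore extended over a wider range than the 10 genes themselves, whose lowest was *Lats2* at 73.4.

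**Figure D3:**
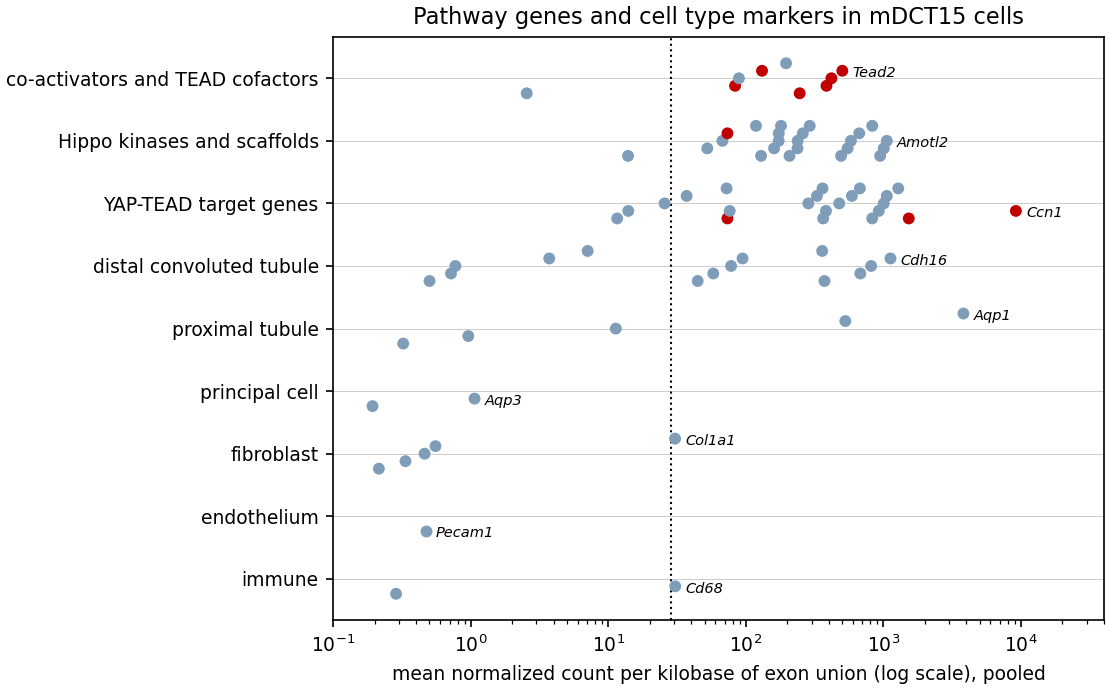
Level of each gene of 3 pathway lists and 6 lists of cell type markers, as the authors' mean normalized count per kilobase of exon union on a logarithmic axis, pooled over both genotypes. Each point is 1 gene, red points are YAP-TEAD genes, the highest gene of each list is named, and the dotted line is the median of all genes, 28.6. The pathway genes lie mostly to the right of that line, and the markers are spread over both sides.

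Both polycystin genes were present. *Pkd1* had a mean of 3175 and a level of 182 per kilobase, and its partner *Pkd2* a mean of 4724 and 282 per kilobase. The levels were 224 and 449 with the longest transcript, 224 and 774 with the canonical transcript, and 4465 and 908 with the median coding transcript. For *Pkd1* that last length is too short to encode the 4293 residues of the canonical transcript, so 4465 does not describe the full-length transcript. *Pkd1* stood above *Pkd2* with that length alone. The *Pkd1* mean includes the edited cells, so it does not check the labels of single samples.

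Some markers of the labelled cell type had no value. Of 20 genes listed for the distal convoluted tubule and its epithelium, 14 had a value and 11 a mean of at least 10. The defining sodium chloride cotransporter gene *Slc12a3* had no value, nor had *Pvalb*, *Calb1*, *Cdh1* and *Krt18*, and of those with a value *Krt8* was the lowest at 0.501 per kilobase, followed by *Bsnd* at 0.717, *Klhl3* at 0.772, *Trpm6* at 3.72 and *Kcnj10* at 7.07. The list's median was 68.0 per kilobase and its highest gene *Cdh16* at 1125, with *Pax8* at 679 and *Pax2* at 373. A gene without a value is one without a row used here, and its level was not read from that.

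Markers of other cells had mostly low values where they had one, with exceptions in the proximal list. Of 5 proximal tubule genes, 3 had a mean of at least 10, led by *Aqp1* at 3816 and *Lrp2* at 528 per kilobase, and the list summed to 4356 per kilobase. The defining transporter genes *Slc34a1* and *Slc5a2* were at 0.322 and 0.958. The 2 of 5 principal cell markers with a value summed to 1.26, and the 1 of 3 endothelial markers with a value, *Pecam1*, stood at 0.468. Fibroblast markers summed to 32.1, nearly all from *Col1a1*, and the immune list to 30.9, nearly all from *Cd68*. Of the 3 thick ascending limb and 3 intercalated cell markers, 0 had a value. All samples were of the cultured mDCT15 line. The part of any other cell type in the pathway levels was not tested, and in bulk samples fewer cells of a type and less RNA per cell cannot be told apart.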

How the data were processed

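RNA of 3 Pkd1-/- and 3 wild type mDCT15 samples, grouped by title, was sequenced. The authors trimmed reads with Trim Galore 0.4.5, aligned them to GRCm39 using STAR 2.7.5a and Ensembl annotation, counted them with HTSeq 0.11.0 at default settings and normalized them with DESeq2 1.22.0 in R 3.5.3. From their table only the deposited mean normalized count, a signal without spread or n, was used. Its 5 columns of the authors' genotype comparison (log2 fold change, standard error, Wald statistic, p-value and adjusted p-value) were not used, and per-sample values were not analysed here. The tests designed for per-sample values were therefore replaced by a description of levels. How the default strand setting of the counting fits the library kit, on which every level rests, was not tested. Although the stated minimum was 5 counts per sample per gene, 5385 genes had a mean under 5.

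Lengths came from GENCODE vM39 on GRCm39, a later release than the authors', in which 20122 genes (97.6%) were found, so exon unions may include exons that were not counted. Genes counted as present from a mean of 10. Proteins translated from canonical coding sequences were aligned globally (BLOSUM62, gap penalties 11 and 1). The canonical length, this translation in place of RefSeq proteins, and the motifs TATAAA and TGANTCA were chosen after seeing the data. Members and lists were chosen with earlier results of these data known. Named were the 10 YAP-TEAD genes, the highest, median and lowest gene of each list, the CCN, LATS, STK, VGLL and AMOT families, listed genes without a value, *Pkd1*, *Pkd2*, reference genes and cell type markers, some of which are not reported here by name. Overlapping gene models were named after their values were seen. The level calculations were tested on simulated data. Computations ran in Python 3.11.15 with Biopython 1.88, pandas 2.3.3, numpy 2.4.6, matplotlib 3.10.9 and scipy 1.17.1.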

Additional observations from a re-analysis of the deposited data

How the results depend on the processing

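No paired analysis was possible because no per-sample values were used. For the same reason the alternatives meant for such values (DESeq2 in place of edgeR, other size factors, no filter on low counts, the replicate number as a block, leaving out each replicate, other pseudocounts) were not run. Several ratios moved with the length used for a gene. *Tead1* over *Tead2* went from -0.26 on the log2 scale to 1.45 with the median coding transcript and -1.16 with the canonical transcript, a length chosen after seeing the data. *Stk4* over *Stk3* went from 1.81 to -0.09 and -0.07 with the same lengths, and to 0.82 with the longest transcript. *Veph1* over *Tead3* went from 0.11 to -0.71 with the longest transcript, -1.13 with the median coding and -1.1 with the canonical transcript. *Tead3* over *Tead4* went from 0.65 to 1.58 with the longest and 1.97 with the canonical transcript. *Tead1* over *Yap1* went from 0.77 to 2.79 with the median coding and 0.05 with the canonical transcript. Single levels of the 10 genes moved by over 1.5 times for 5 genes with the longest, 7 with the median coding and 5 with the canonical transcript. Those of *Yap1*, *Wwtr1*, *Tead2*, *Tead3* and *Lats2* moved with each of these lengths, and those of *Tead1* and *Tead4* with the median coding transcript alone. These shifts follow from dividing one mean by different lengths. The ratios *Wwtr1* over *Yap1*, *Ccn1* over *Ccn2* and *Lats1* over *Lats2* kept their direction under all 3 alternative lengths. With a minimum mean of 1 or of 100, all 10 YAP-TEAD genes were still counted, and the proximal tubule count went from 3 to 5 at a minimum of 1. Against only the genes whose mean reached 10, the share of genes below per kilobase left its exact 95% binomial interval for 9 of the 10 genes, as for *Wwtr1* (88.8%), *Yap1* (80.3%) and *Veph1* (65.7%), and against those whose mean reached 1 for 7. By mean count it did so for 10 and 6. Leaving out genes with low means lowers such shares by construction, and the interval holds no spread between replicates. These counts are therefore no test of the levels. Identity over the shorter protein kept all 14 pairs within 1.5 times. Without replicate values, no error could be set beside any level.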
